A study of Mus musculus with 5 samples.

Results

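NF-kB subunits and the inhibitors that NF-kB itself induces were followed in 3T3-L1 adipocytes, a mouse line of preadipocytes that stores lipid after adipogenic differentiation. The genes were the subunits *Nfkb1*, *Nfkb2*, *Rela*, *Relb* and *Rel* and the feedback inhibitors *Nfkbia*, *Nfkbie*, *Nfkbiz*, *Tnfaip3* and *Tnip1*, each read from the probe set that carries its symbol. Of these 10 genes, 9 were measured among 19505 named genes, and *Nfkb1* has no probe set named here, so it was not analysed. Each of the 9 had a single named probe set.

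Each RNA sample was read on an Affymetrix Clariom S Mouse array, 5 in all, a design with short probes for well-annotated genes. For 3 samples, called MM-3T3-L1s, preadipocytes had shared medium for 48 h with the human myeloma line MM.1S across a membrane with 0.4 µm pores that keeps the cells apart. For 2 control samples the preadipocytes had been held in the same RPMI-1640 medium alone. Myeloma cells were then removed, and both groups were washed and given the same adipogenic course of IBMX, dexamethasone and insulin, with collection after 7 days by the labels. The RNA therefore comes from adipocytes after the exposure had ended. Both groups are 1 cell line. No label tells if replicates came from different cultures, so each p-value covers the spread among these samples alone, which may be technical.

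NF-kB is a family of dimeric transcription factors that inhibitory IkB proteins hold in the cytoplasm. When interleukin-1, TNF or Toll-like receptor ligands activate the IkB kinase complex, the inhibitor is destroyed and the dimers enter the nucleus. There they induce cytokines, chemokines and acute-phase genes, together with the genes of their own inhibitors, which end the response. In adipocytes this pathway is known for inflammatory gene expression and for interleukin-6 and chemokine release. Since activity is set by where the proteins are, the RNA of a subunit is no measure of it, whereas the feedback inhibitors are themselves target genes. The arrays measure RNA only.

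Feedback on these genes is known to act through kappa-B sites, so the stretches of their promoters that hold such letters are shown. RefSeq promoters (GRCm38.p6, 250 bases before to 50 after the start) were at hand for 7 of the 10 genes. The kappa-B consensus, the decamer that NF-kB dimers bind, was searched on both strands. It was found in 6 of the 7 genes and in 8 of their 10 promoters, some of which overlap, against 8.46% of all 32851 promoters in the table. The stretches below read 5′ to 3′ along the gene, and capitals mark the bases covered by a match or by overlapping matches.
*Nfkbia* (chr12:55492647-55492696, minus strand): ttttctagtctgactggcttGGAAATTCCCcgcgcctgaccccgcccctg
*Nfkbie* (chr17:45555574-45555623, plus strand): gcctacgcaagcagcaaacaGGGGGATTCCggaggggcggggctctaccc
*Tnfaip3* (chr10:19015393-19015442, minus strand): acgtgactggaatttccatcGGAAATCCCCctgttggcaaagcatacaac
*Tnfaip3* (chr10:19015506-19015555, minus strand): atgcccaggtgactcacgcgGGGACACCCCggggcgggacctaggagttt
*Tnip1* (chr11:54962967-54963018, minus strand): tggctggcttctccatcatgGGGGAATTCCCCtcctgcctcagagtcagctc
*Rel* (chr11:23771031-23771081, minus strand): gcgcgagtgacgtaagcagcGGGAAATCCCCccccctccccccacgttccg
*Nfkb2* (chr19:46304678-46304755, plus strand): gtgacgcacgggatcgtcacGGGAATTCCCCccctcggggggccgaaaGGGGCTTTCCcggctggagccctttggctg

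The matches began between 11 and 125 bases upstream of the start in these stretches, nearest to it in *Nfkb2* and in *Tnfaip3*, where one began 12 bases upstream. *Tnip1* and *Nfkb2* hold the same run GGGAATTCCCC, and *Rel* and *Tnfaip3* the same run GGAAATCCCC. The other promoters of *Nfkb2* also held matches, which are not shown. *Rela* held no match to the consensus. A looser form that includes the consensus, GGG followed by any 5 bases and CC, was found in all 7 genes including *Rela*, but also in 50.8% of all promoters. A match is a description of letters and not a measured binding site.

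No subunit or feedback inhibitor differed between MM-3T3-L1s and controls at the study's thresholds, an unadjusted p of 0.05 or less with a fold change above 1.5. Of the 9 measured genes, 0 were higher and 0 were lower, where limma called 0.91% of all 22206 probe sets higher and 1.44% lower. At an unadjusted p of 0.05 or less and any fold change the counts were again 0 and 0, beside 3.48% and 4.11% of all probe sets. The methods' test, which compares each probe set alone, also called 0 of the 9 at the study's thresholds. After Benjamini-Hochberg adjustment over all probe sets, limma gave the 9 genes adjusted p-values from 0.664 for *Rel* to 0.920 for *Nfkbiz*, and no probe set of the array fell below 0.05. Their median log2 fold change was -0.12, and its median size without sign was 0.12, against 0.15 over all probe sets. For 7 of the 9 genes the mean was lower in MM-3T3-L1s, beside 10477 of all 22206 probe sets. The count was 6 when the arrays were quantile normalized once more, since *Tnip1* then changed sign.

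**Figure D1:**
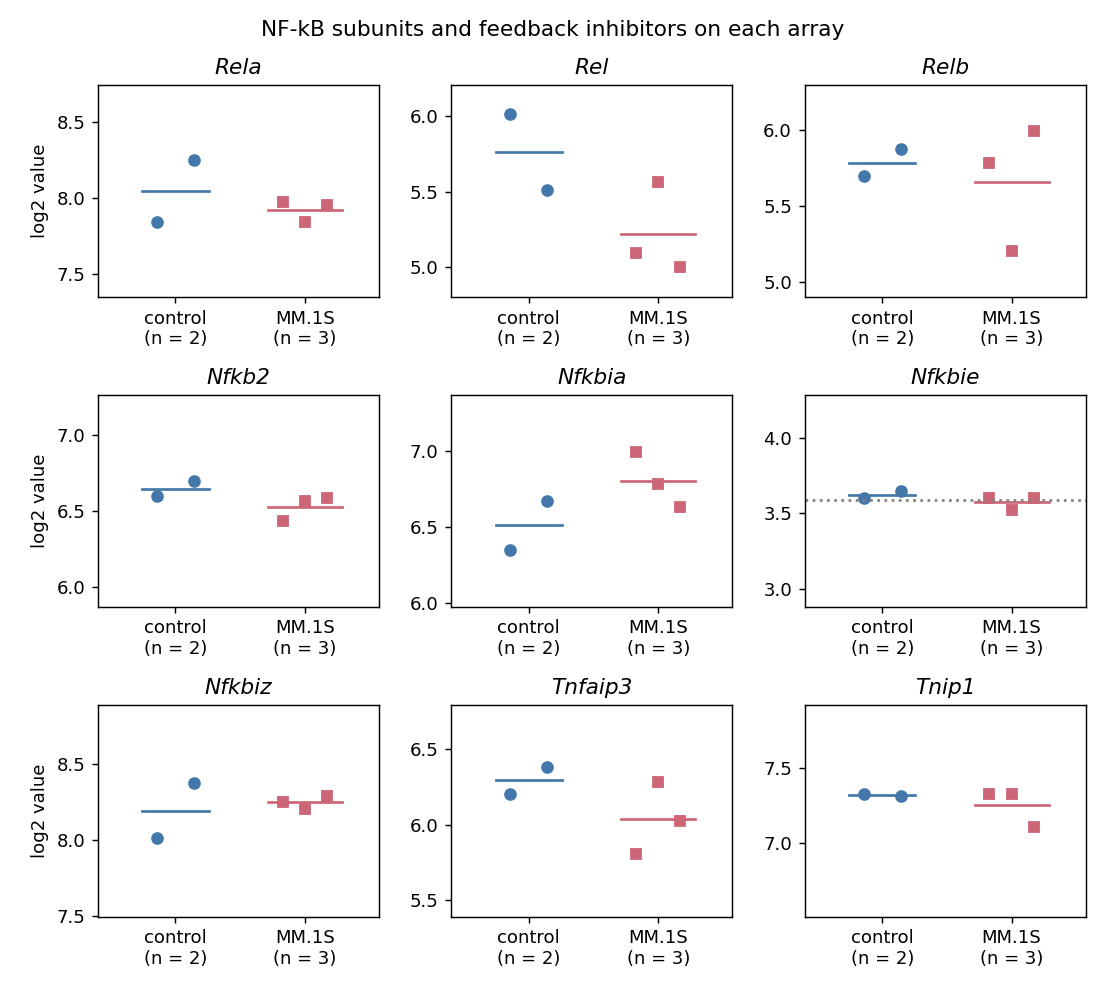
Log2 value of each measured gene on each array (vertical axis, 1.4 log2 units in every panel), with circles for the 2 control arrays, squares for the 3 MM.1S pre-exposed arrays and lines at the group means. The dotted line in the *Nfkbie* panel is the background level of 3.59, and the groups lie apart for *Nfkb2* alone.

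Among the subunits, *Rela* encodes p65, the transactivating partner of the commonest dimer. It read 7.84 and 8.25 in controls and 7.97, 7.84 and 7.95 in MM-3T3-L1s on the log2 scale. All 3 MM-3T3-L1 arrays lay between the controls, which were 0.41 apart. The groups differed by -0.12 on the log2 scale (SE 0.16, 95% interval -0.51 to 0.26), and the difference was 0.08 without control replicate 2 and -0.33 without control replicate 1. Where a control array is left out here and in later results, the control left is assumed to vary like the MM-3T3-L1 arrays, which alone then give the spread behind the test. The interval stayed within a 1.5-fold change in either direction.

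*Rel* encodes c-Rel, a subunit best known from lymphocytes, and had the largest difference of the 9 genes. It read 6.01 and 5.51 in controls and 5.09, 5.57 and 5.00 in MM-3T3-L1s. MM.1S replicate 2 lay above control replicate 2, so the groups overlapped. The means were 5.76 ± 0.36 (SD, n = 2) in controls and 5.22 ± 0.30 (SD, n = 3) in MM-3T3-L1s. This log2 fold change, -0.54 (SE 0.23, 95% interval -1.12 to 0.04), with limma's adjusted p at 0.664, falls just short of 1.5-fold. Without MM.1S replicate 2 it was -0.71 and passed the study's thresholds, while without control replicate 1 it was -0.29. The controls alone differed by 0.50 in this gene, nearly as much as the groups.

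*Relb*, the subunit that works with the p52 product of *Nfkb2* in the non-canonical branch, read 5.70 and 5.87 in controls and 5.79, 5.20 and 5.999 in MM-3T3-L1s. Both the highest and the lowest value came from MM-3T3-L1 arrays, so the control arrays lay inside the range of the other group. Its log2 fold change was -0.12 (SE 0.25, 95% interval -0.74 to 0.49), and it was 0.11 without MM.1S replicate 2. That interval reached past a 1.5-fold decrease.

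*Nfkb2*, which encodes the p100 precursor that is cut to p52, read 6.60 and 6.70 in controls and 6.44, 6.56 and 6.58 in MM-3T3-L1s. It was the one gene of the 9 whose groups did not overlap, with all MM-3T3-L1 arrays below both controls by 0.012. Such separation was found in 24.1% of all probe sets, and in 12.2% in this direction. The difference of -0.12 (log2, SE 0.11, 95% interval -0.40 to 0.16) lay within 1.5-fold either way, and limma's adjusted p was 0.769.

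Among the feedback inhibitors, *Nfkbia* encodes IkB-alpha, which is resynthesised within a response and carries the dimers out of the nucleus. It read 6.35 and 6.67 in controls and 6.99, 6.78 and 6.63 in MM-3T3-L1s. MM.1S replicate 3 lay below control replicate 2, so the groups overlapped. The means were 6.51 ± 0.23 (SD, n = 2) and 6.80 ± 0.18 (SD, n = 3). The log2 fold change was 0.29 (SE 0.17, 95% interval -0.12 to 0.70, limma adjusted p = 0.685), the highest of the 9 genes, and stayed between 0.13 and 0.45 when each array was left out in turn. The interval allowed an increase of up to 1.62-fold.

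*Tnfaip3* encodes A20, a ubiquitin-editing enzyme that shuts down the relay from the receptors. It read 6.20 and 6.38 in controls and 5.81, 6.28 and 6.02 in MM-3T3-L1s, with MM.1S replicate 2 between the controls. Its log2 fold change was -0.26 (SE 0.17, 95% interval -0.67 to 0.16, limma adjusted p = 0.705). *Tnfaip3* and *Nfkbia*, both with a match close to their start, thus had means on opposite sides of 0, and the interval of each included 0.

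*Nfkbiz*, which encodes IkB-zeta, a nuclear protein needed for induction of secondary genes such as *Il6* and *Lcn2*, read 8.01 and 8.38 in controls and 8.25, 8.20 and 8.29 in MM-3T3-L1s. All MM-3T3-L1 arrays lay between the controls, and their SD was 0.044 against 0.26 between the controls. The groups differed by 0.05 (log2, SE 0.14, 95% interval -0.30 to 0.41), and the sign depended on the controls, with -0.13 without control replicate 1 and 0.24 without control replicate 2. The interval stayed within 1.5-fold either way.

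*Tnip1* encodes ABIN-1, a ubiquitin-binding partner of A20. It read 7.33 and 7.31 in controls and 7.33, 7.33 and 7.11 in MM-3T3-L1s, with 1 value, equal to all deposited decimals, on 3 arrays across the groups. The difference was -0.07 (log2, SE 0.12, 95% interval -0.37 to 0.24), and MM.1S replicate 3 alone lay apart.

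*Nfkbie*, which encodes IkB-epsilon, a slower inhibitor, read 3.60 and 3.64 in controls and 3.60, 3.52 and 3.60 in MM-3T3-L1s. These values lie at the background level of 3.59, below which 95% of 1448 receptor genes of smell, pheromones and taste had their means, so the transcript was not clearly above background in either group. Its log2 difference was -0.05 (SE 0.10). It too had 1 value on 3 arrays, which was so for 5.61% of all probe sets. The other 8 genes lay well above this level on every array.

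**Figure D2:**
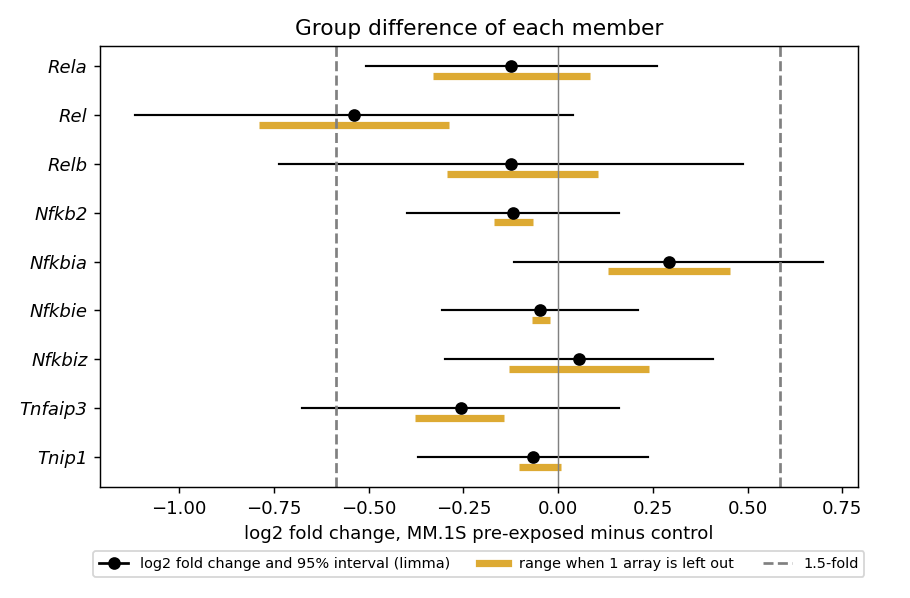
Log2 fold change of MM-3T3-L1s against controls for each gene (horizontal axis, points) with limma's 95% interval (black lines), the range when each array is left out in turn (yellow bars) and 1.5-fold marked by dashed lines. Every black interval crosses 0, and *Rel*, *Relb*, *Tnfaip3* and *Nfkbia* reach past 1.5-fold.

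For 5 of the 9 genes the 95% interval lay within a 1.5-fold change in either direction, which was so for 54.4% of all probe sets. These were *Rela*, *Nfkb2*, *Nfkbiz*, *Tnip1* and *Nfkbie*. For *Rel*, *Relb*, *Tnfaip3* and *Nfkbia*, the interval reached past 1.5-fold in one direction. An exact permutation test over the 10 splits of the arrays, two-sided, gave p-values from 0.2 for *Nfkb2* to 1 for *Tnip1*, where 0.1 is the smallest it can give, so this test could not reach 0.05 for any gene.

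The control arrays themselves differed in these genes. Control replicate 2 read higher than control replicate 1 for 7 of the 9, against 46.9% of all genes, and it was the highest of all 5 arrays for 5 of them. The gap between the controls was larger than the difference between the groups for 4 of the 9, *Rela*, *Relb*, *Nfkbia* and *Nfkbiz*, and for 48.6% of all genes. Over the whole table the arrays were alike, with a Pearson's r of 0.985 to 0.993 between any pair across probe sets and medians between 4.47 and 4.53.

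The relay that leads to NF-kB was described with a list of 51 kinases, adaptors, ubiquitin enzymes and other inhibitors, of which 45 were measured. The list mixes genes that drive the relay with genes that restrain it, so counts of higher and lower genes give the relay no direction. At the study's thresholds 1 gene was higher, 1 was lower and 43 were neither, and the median log2 fold change was -0.06 against 0.01 over all probe sets. The gene that was higher, *Irak3*, encodes a kinase-like protein that restrains interleukin-1 and Toll-like receptor signaling, and its log2 difference was 1.87 (SE 0.26). The gene that was lower, *Map3k14*, encodes NIK, the kinase that starts the non-canonical branch by driving p100 to p52. *Map3k14* read 6.37 and 5.86 in controls and 5.61, 5.35 and 5.60 in MM-3T3-L1s, for a log2 difference of -0.59 (SE 0.19, limma adjusted p = 0.591). Its log2 difference was -0.34 without control replicate 1 and -0.51 without MM.1S replicate 2, both short of 1.5-fold and of the p threshold, and the first p rests on the spread of the MM-3T3-L1 arrays alone.

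With an unadjusted p of 0.05 or less at any fold change, 2 relay genes were higher (4.44%) and 5 lower (11.1%), against 3.48% and 4.11% of all probe sets. Besides *Irak3*, the adaptor gene *Tirap* passed upward at a log2 fold change of 0.35 (SE 0.12). Besides *Map3k14*, those that passed downward were *Birc2*, the ubiquitin ligase cIAP1, at -0.45 (SE 0.15), the deubiquitinases *Cyld* at -0.42 (SE 0.15) and *Otulin* at -0.36 (SE 0.14), and *Irak2*, a kinase of the interleukin-1 receptor complex, at -0.34 (SE 0.13). All MM-3T3-L1 arrays lay below both controls for each of these 5 lower genes, as in 20% of the relay list and 12.2% of all probe sets. The 5 were picked by p on the same arrays, so their separation adds no support. The adjusted p-values from limma were between 0.321 for *Irak3* and 0.651 for *Irak2*. Leaving out single arrays gave 1 to 4 higher and 2 to 6 lower genes, with 2 lower without control replicate 2 and 3 without MM.1S replicate 1 or 2, and with 4 higher without control replicate 2 and 1 without control replicate 1 or MM.1S replicate 1 or 2. Of the IkB kinase complex, *Ikbkb* had a log2 difference of -0.15 (SE 0.18), and *Ikbkg* lay below the background level.

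Genes known to be induced through NF-kB were described with a list of 45, of which 43 were measured. Of these, 11 were higher in MM-3T3-L1s (25.6%), 1 was lower (2.33%) and 31 were neither, against the 0.91% and 1.44% given for all probe sets. The median log2 fold change was 0.24, with 28 genes above 0 and 15 below, beside 11729 and 10477 of all 22206 probe sets. In the reported limma fit 0 genes of the list passed after adjustment over all probe sets, while 1 did, *Hp*, when the prior variance was robust and followed intensity (limma adjusted p = 0.0433). At an unadjusted p of 0.05 or less and any fold change 14 were higher and 2 lower. Leaving out single arrays gave 3 to 13 higher, with 3 without control replicate 1 and 9 without MM.1S replicate 1, and 1 to 4 lower, with 4 without control replicate 1 and 1 without control replicate 2, MM.1S replicate 2 or MM.1S replicate 3. The list was written with earlier results of these data known, some of its genes were picked out by the study on these arrays, and so its direction is not independent evidence.

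**Figure D3:**
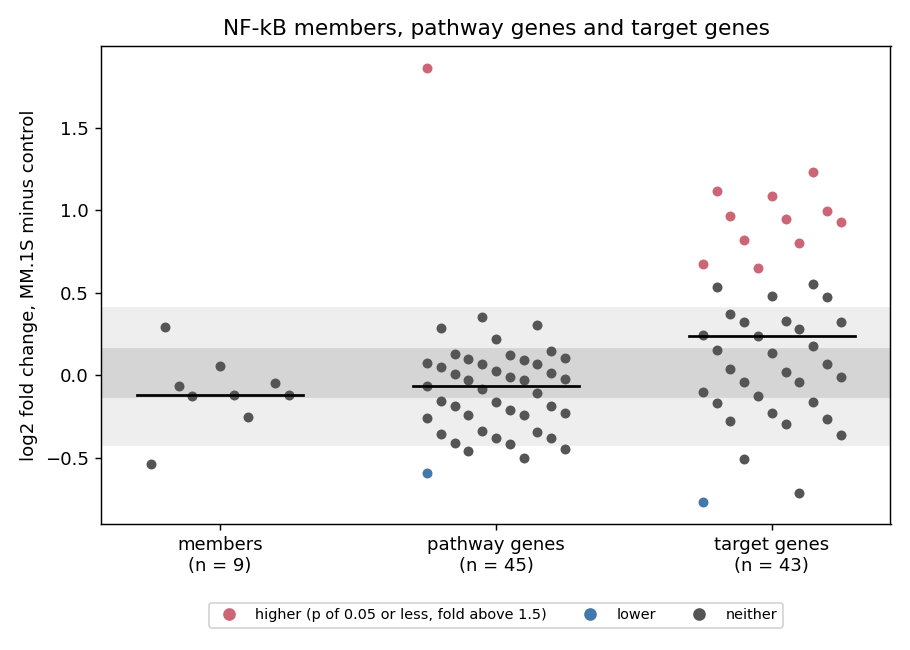
Log2 fold change of MM-3T3-L1s against controls (vertical axis) for the 9 members, 45 pathway genes and 43 target genes, 1 point a gene, coloured by the study's thresholds, with a line at each median. Grey bands hold the middle of all genes (25th to 75th percentile, dark, and 5th to 95th, light), and 11 target genes, but no member, are marked as higher.

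*Lcn2*, which encodes an iron-scavenging lipocalin, *Hp*, which encodes haptoglobin, and *Steap4*, which encodes a metalloreductase, had the highest log2 fold changes of the list, 1.23, 1.12 and 1.09. *Saa3*, which encodes serum amyloid A3 of inflamed fat cells, read 9.82 and 10.64 in controls and 11.33, 11.30 and 10.86 in MM-3T3-L1s, a difference of 0.93 (SE 0.28). *Cfb*, complement factor B, differed by 0.82 (SE 0.30), with 8.42 in MM.1S replicate 3 close to the 8.27 of control replicate 2. *Sod2*, the mitochondrial superoxide dismutase, differed by 0.80 (SE 0.21).

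Among cytokine and chemokine genes, *Il6* read 4.54 and 4.81 in controls and 5.93, 5.79 and 5.21 in MM-3T3-L1s, a log2 difference of 0.97 (SE 0.24, limma adjusted p = 0.528). *Ccl20*, a chemokine for lymphocytes and dendritic cells, read 4.05 and 4.30 in controls and 4.87, 5.05 and 5.60 in MM-3T3-L1s, a log2 difference of 1.00 (SE 0.24). The neutrophil chemokine genes *Cxcl1* and *Cxcl5* had log2 fold changes of 0.94 (SE 0.28) and 0.65 (SE 0.21). All MM-3T3-L1 arrays lay above both controls for each of these 4 genes, and for *Nos2*, the inducible nitric oxide synthase, at 0.67 (SE 0.18). Such upward separation was found in 39.5% of the target list and 11.9% of all probe sets. These genes were called on the same arrays, so their separation adds no support. Other well-known targets did not pass, with *Ccl2* at 0.13 (SE 0.21), *Icam1* at 0.24 (SE 0.24), *Vcam1* at -0.04 (SE 0.21), *Ptgs2* at -0.13 (SE 0.21) and *Cxcl2*, which lay below the background level, at -0.01 (SE 0.11). *Mmp9*, a gelatinase, was the gene that was lower, at 5.11 and 5.44 in controls and 4.66, 4.39 and 4.48 in MM-3T3-L1s, a difference of -0.77 (SE 0.15).

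Without control replicate 1, where the spread comes from the MM-3T3-L1 arrays alone, 3 of the 11 higher target genes, *Lcn2*, *Hp* and *Steap4*, still passed. The others then had log2 fold changes of 0.87 (*Ccl20*), 0.83 (*Il6*), 0.73 (*Sod2*), 0.72 (*Cfb*), 0.65 (*Cxcl1*), 0.57 (*Nos2*), 0.52 (*Saa3*) and 0.40 (*Cxcl5*). Of these, *Nos2*, *Saa3* and *Cxcl5* fell short of 1.5-fold, and the other 5 missed the p threshold alone. Control replicate 2 read higher than control replicate 1 in 10 of the 11, as it did in 7 of the 9 subunits and inhibitors. It did so in 69.8% of the 43 target genes, 51.7% of all genes called higher and 46.9% of all genes. Thresholds were also missed without control replicate 2 by *Cfb* (0.92) and *Sod2* (0.87), without MM.1S replicate 1 by *Cfb* (0.73), *Cxcl5* (0.61) and *Saa3* (0.85), without MM.1S replicate 2 by *Cfb* (0.62), *Cxcl5* (0.56) and *Saa3* (0.86), and without MM.1S replicate 3 by *Nos2* (0.52). The methods' test called 5 of the 11. RefSeq promoters were at hand for 33 of the target genes, and 15 of these (45.5%) held the kappa-B consensus, against 24.4% of 41 relay genes and 9.55% of all genes in the table. The target list was chosen as genes known to be induced through NF-kB. Its share of matches may follow from that choice and is no evidence on the expression values.

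Marker lists of other cell types were read on the same arrays. Adipocyte markers were abundant in both groups, with 10 of 11 above the background level and a summed linear level of 15524 to 17024 in controls and 17273 to 18412 in MM-3T3-L1s. *Fabp4*, which had the highest level of the 11 and so weighs most in the sum, also had the largest rise, 0.32 (SE 0.11). The median log2 fold change of the 11 was 0.08, with 8 above 0 and 3 below, beside 11729 and 10477 of all 22206 probe sets. *Retn*, which encodes resistin, was the one adipocyte marker past the thresholds, at -0.63 (SE 0.23). The summed level of 9 preadipocyte and fibroblast markers was 6756 to 6801 in controls and 5185 to 5533 in MM-3T3-L1s, and the matrix genes *Postn* (-0.85, SE 0.17) and *Lum* (-0.71, SE 0.26) passed downward. Of these 9 genes 7 had a lower mean in MM-3T3-L1s, and *Thy1* (0.12, SE 0.12) and *Pdgfrb* (0.35, SE 0.11) a higher one. The groups lay apart for all 9, 7 downward and 2 upward, beside 12.2% and 11.9% of all probe sets. At an unadjusted p of 0.05 or less from limma and any fold change, 4 were lower and 1 higher, beside 4.11% and 3.48% of all probe sets. These were *Postn*, *Lum*, *Dlk1* (-0.45, SE 0.10) and *Col3a1* (-0.40, SE 0.12) downward, and *Pdgfrb* upward (limma unadjusted p = 0.0182). Without single arrays the thresholds were missed by *Retn* (-0.79 to -0.43, in all fits but that without MM.1S replicate 1) and by *Lum* (-0.88 to -0.47, in all fits but that without MM.1S replicate 2). Macrophage markers, 4 of 11 above the background level, summed to 196 to 223 in controls and 286 to 292 in MM-3T3-L1s. *Cd14*, a co-receptor for bacterial lipopolysaccharide that other cells also express, was the one of 11 to pass, at 0.83 (SE 0.18), and it was 0.57 without control replicate 1. *Cd14* made up most of the difference in the sum, and without it the other 10 summed to 125 to 128 in controls and 136 to 152 in MM-3T3-L1s. The defining markers *Adgre1* and *Csf1r* lay below the background level, while *Ptprc* (mean 4.11 over the arrays), *Fcgr1* (4.41) and *Lyz2* (5.45) lay above it. Of the 11 macrophage markers 9 had a log2 fold change above 0 and 2 below, with a median of 0.22. Plasma and B cell markers summed to 247 in both controls and to 238 to 286 in MM-3T3-L1s, and 8 of 10 lay at or below the background level, as did all 8 endothelial markers. MM.1S cells are human and the array is designed for mouse, so carry-over of myeloma RNA was not tested by these levels. The part of cell composition in the target gene values was not tested, and in bulk RNA fewer cells of a type and less RNA per cell cannot be told apart.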

How the data were processed

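Deposited values are on the log2 scale: the authors normalized the array scans by RMA (background correction, 1 distribution of probe signals, summary of probes into probe sets) in Partek Genomics Suite v. 6.17.0918 before log2 transformation. Whether the 5 arrays were normalized alone is not given in the sources used here. RMA can give a probe set 1 value on several arrays, which narrows its spread.

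All 22206 probe sets were used. Symbols came from the platform annotation, where 19572 probe sets carried 1 symbol and 2634 none, and a gene was represented by its probe set with the highest mean. Groups (2 control arrays, 3 MM.1S arrays) were compared in R 4.3.3 with limma 3.58.1 (lmFit, eBayes), with group as the only term, 3 residual and 2.79 prior degrees of freedom, two-sided, and Benjamini-Hochberg adjustment over all probe sets. The number of arrays limits the precision. SE and intervals are limma's, and SD is between the arrays of a group. The fit was tested on simulated data. Genes named from the lists were those past the study's thresholds and up to 4 of smallest p. *Cd14*, *Retn*, *Postn* and *Lum* are marker genes past them. *Ikbkb*, *Ikbkg*, *Cxcl2*, *Ccl2*, *Icam1*, *Vcam1*, *Ptgs2*, *Pdgfrb*, *Thy1*, *Dlk1*, *Col3a1*, *Fabp4*, *Ptprc*, *Fcgr1* and *Lyz2* were named after their values were seen. So were *Cyld*, *Otulin*, *Irak2*, *Adgre1* and *Csf1r*. Members and lists were chosen with earlier results of these data known. Alternatives were the one-way ANOVA of the study's methods, an intensity trend with a robust prior, leaving out dim probe sets, a repeated quantile normalization, median centring, replicate number as a block, array weights, each array left out and other call rules. No member had another probe set to try. Promoter sequences were those of RefSeq, GRCm38.p6.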

Additional observations from a re-analysis of the deposited data

How the results depend on the processing

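With 0 members higher and 0 lower in the reported fit, each alternative gave the same counts except the fit without MM.1S replicate 2, where *Rel* was lower (0 to 1 over the fits that leave out 1 array). Signs changed where differences were small. *Tnip1* was at 0.0045 after quantile normalization once more and at 0.0081 with the replicate block and without MM.1S replicate 3. With 1 array left out, log2 fold changes ran from -0.10 to 0.0081 for *Tnip1*, from -0.13 to 0.24 for *Nfkbiz*, from -0.33 to 0.084 for *Rela* and from -0.29 to 0.11 for *Relb*. Higher relay genes numbered 1 in the reported fit, 2 at any fold change and 0 after adjustment. Lower relay genes numbered 1 in the reported fit, 2 with array weights or the replicate block, 0 with the methods' ANOVA, quantile normalization or adjustment, 5 at any fold change and 0 to 2 with 1 array left out. Higher target genes numbered 11 in the reported fit, 5 with the methods' ANOVA, 0 after adjustment and 3 to 12 with 1 array left out. Lower target genes numbered 1 in the reported fit, 2 at any fold change, 0 after adjustment and 1 to 3 with 1 array left out. Over all probe sets, limma left 0 below an adjusted p of 0.05, with 772 higher and 912 lower at an unadjusted p of 0.05 or less, the methods' ANOVA left 2 and the intensity trend with a robust prior left 9, among them the target gene *Hp* and 0 members. The labels number both groups, but same-numbered arrays did not deviate together (r of -0.027 and 0.060 across probe sets), so the numbers were not taken as pairs. The replicate block has 1 residual degree of freedom, and MM.1S replicate 3, with no control of its number, adds nothing to it. It moved the higher calls over all probe sets from 202 to 275 and the lower from 320 to 395.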
